A study of Rattus norvegicus with 6 samples.

Results

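The comparison described here set 2 tissue pools with little or no Pcp2, a cerebellar marker, against 4 pools in which it was bright, within a rat experiment on acute alcohol intoxication in which all 6 pools were labelled as cerebellum. The pools were chosen by the intensity of Pcp2, which encodes Purkinje cell protein 2 and marks the output neurons of the cerebellar cortex. Pcp2 had an intensity of 38.6 in alcohol pool 2 and 50.1 in control pool 1, both under 100, and these are called the low-Pcp2 pools. It had an intensity of 11901.5 in alcohol pool 1, 10992.9 in alcohol pool 3, 12441.9 in control pool 2 and 11125.2 in control pool 3, all above 5000, and these are called the high-Pcp2 pools. Thus 2 of the 6 pools were on the low side and 4 on the high side, and each side held both treatments in equal numbers.

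Every pool combined tissue of 3 male Sprague-Dawley rats, 8 to 10 weeks old and 240 to 260 g in weight, so that each treatment covered 9 rats. After a 12 h fast, rats of the alcohol group were gavaged with 40% alcohol (15 ml/kg) and control rats, called brine in the sample titles, with an equal volume of saline. The sources used here do not give the interval from gavage to dissection or how the tissue was dissected. Each pool was hybridised to 1 single-colour NimbleGen array, whose deposited values are RMA intensities (robust multi-array average, a background-corrected and normalised summary of the probes of a transcript). Levels below are log2 of these intensities for 26419 features, and a feature is a set of probes for 1 transcript. A log2 level of 5.64, an intensity of 50, was taken as the limit of detection.

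Because the pools were separated by a measured value, with other genes of these arrays in view, the differences between the 2 kinds of pool are a description and carry no p-value. A difference is given as low-Pcp2 minus high-Pcp2, with its standard error from limma, a linear model with moderated variances that also held a term for treatment (n = 2 against 4 pools). A gene was counted as higher on one side when the 2 kinds of pool did not overlap, the means differed by at least 2 log2 units (4-fold) and every pool of the higher side reached an intensity of 50. Fold values were computed with intensities under 50 raised to 50, and are lower bounds where no pool of the dimmer side reached 50. In bulk tissue, fewer cells of a type and less RNA per cell cannot be told apart.

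Purkinje cells are the sole output neurons of the cerebellar cortex, and granule cells are its small, very numerous excitatory neurons. Gabra6 encodes a GABA-A receptor subunit largely restricted to granule cells in the brain, and Neurod1 a transcription factor needed for granule cell survival. Hox genes encode transcription factors that pattern the embryonic hindbrain and spinal cord from front to back, and the cerebellum arises in front of their expression domain. Tph2 and Slc6a4 encode the rate-limiting enzyme of neuronal serotonin synthesis and the serotonin transporter, and the cell bodies that make them lie in the raphe nuclei of the brainstem. Cerebellum and brainstem are joined by the cerebellar peduncles, large bundles of myelinated axons.

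RefSeq promoter windows (rat assembly GRCr8, 250 bases before to 50 after the annotated start, 5′ to 3′ on the gene's strand) are shown for the markers that separate the pools and for which the table has an entry. The first 3 belong to genes bright in the high-Pcp2 pools, and Tph2 to a gene bright in the low-Pcp2 pools. Capitals mark 2 searched motifs, the E box CANNTG bound by basic helix-loop-helix factors such as Neurod1 and the TATA motif TATAAA.
Pcp2 promoter (chr12:6481258-6481557, minus strand): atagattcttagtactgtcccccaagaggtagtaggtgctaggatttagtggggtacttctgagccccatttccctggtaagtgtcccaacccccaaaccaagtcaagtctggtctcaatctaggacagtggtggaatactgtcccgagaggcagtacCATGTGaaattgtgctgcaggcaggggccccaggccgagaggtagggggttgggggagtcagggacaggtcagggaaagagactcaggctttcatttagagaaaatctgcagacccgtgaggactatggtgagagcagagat
Gabra6 promoter (chr10:27327185-27327484, minus strand): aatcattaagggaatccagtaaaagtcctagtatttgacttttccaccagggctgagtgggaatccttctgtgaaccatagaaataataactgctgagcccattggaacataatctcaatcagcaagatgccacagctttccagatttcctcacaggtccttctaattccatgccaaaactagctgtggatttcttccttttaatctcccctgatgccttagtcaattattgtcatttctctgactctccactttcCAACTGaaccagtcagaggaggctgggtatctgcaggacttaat
Neurod1 promoter (chr3:84770405-84770704, minus strand): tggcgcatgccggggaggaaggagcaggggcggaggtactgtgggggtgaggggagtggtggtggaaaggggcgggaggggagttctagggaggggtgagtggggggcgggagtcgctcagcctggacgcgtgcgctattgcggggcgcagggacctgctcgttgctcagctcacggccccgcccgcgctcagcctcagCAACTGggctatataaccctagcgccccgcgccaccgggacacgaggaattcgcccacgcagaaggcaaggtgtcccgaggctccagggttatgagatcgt
Tph2 promoter (chr7:52675590-52675889, minus strand): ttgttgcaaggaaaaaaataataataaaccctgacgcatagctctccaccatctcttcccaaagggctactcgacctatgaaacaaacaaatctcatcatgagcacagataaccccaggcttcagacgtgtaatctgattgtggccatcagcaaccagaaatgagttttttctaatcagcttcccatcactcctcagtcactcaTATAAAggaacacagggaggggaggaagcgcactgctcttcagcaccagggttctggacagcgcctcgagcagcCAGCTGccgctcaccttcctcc
Each window held 1 CANNTG, and the Tph2 window alone held TATAAA, which begins at position -46 relative to the gene start. CANNTG begins at position -92 in Pcp2, -51 in Neurod1, 6 in Gabra6 and 28 in Tph2. Both strands were searched, and neither motif overlapped the other. A match is a description of letters and not of binding.

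Across promoters the windows were compared by gene group. A window was available for 15068 of 24253 gene identifiers on the array. Among identifiers higher in the low-Pcp2 pools it was available for 371 of 591, and among those higher in the high-Pcp2 pools for 228 of 419. The shares below describe only the genes with a window. CANNTG was present in 71.6% of all 27457 promoters, in 67.2% of the 15068 of genes on the array, in 76.0% of 371 promoters of genes higher in the low-Pcp2 pools and in 64.5% of 228 promoters of genes higher in the high-Pcp2 pools. TATAAA was present in 14.3%, 11.9%, 11.9% and 7.9% of these groups in the same order. The motif TGATNNAT, as bound by Hox and Pbx proteins together, was present in 8.8%, 7.2%, 5.7% and 2.2%. The motif CCGGAA, the core bound by ETS factors, was present in 15.8%, 20.5%, 10.0% and 14.5%. The median GC content of the windows was 52.3%, 57.7%, 59.7% and 62.3%, so the groups also differed in base composition, whose part in the motif shares was not tested.

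Over the whole array the 2 kinds of pool differed in both directions. With all 3 criteria, 632 features (2.39% of 26419) were higher in the low-Pcp2 pools, representing 460 named genes, and 444 (1.68%) were higher in the high-Pcp2 pools, representing 332 named genes. Without the criteria on size and intensity, both low-Pcp2 pools lay above all high-Pcp2 pools for 6194 features (23.4%) and below them for 6632 (25.1%). The median difference was 2.55 among the features higher in the low-Pcp2 pools, with a maximum of 6.14. It was -2.57 among those higher in the high-Pcp2 pools, with a minimum of -8.19. Of the first set, 80 features were under an intensity of 50 in all 4 high-Pcp2 pools, and of the second, 62 were under it in both low-Pcp2 pools. The median difference over all features was -0.05. Just inside the 4-fold criterion lay Prickle2 and Tagln on one side and Cacnb3 and Rd3l on the other, and just outside it Ano4, Elovl1, Pde9a and Cadm3.

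**Figure D1:**
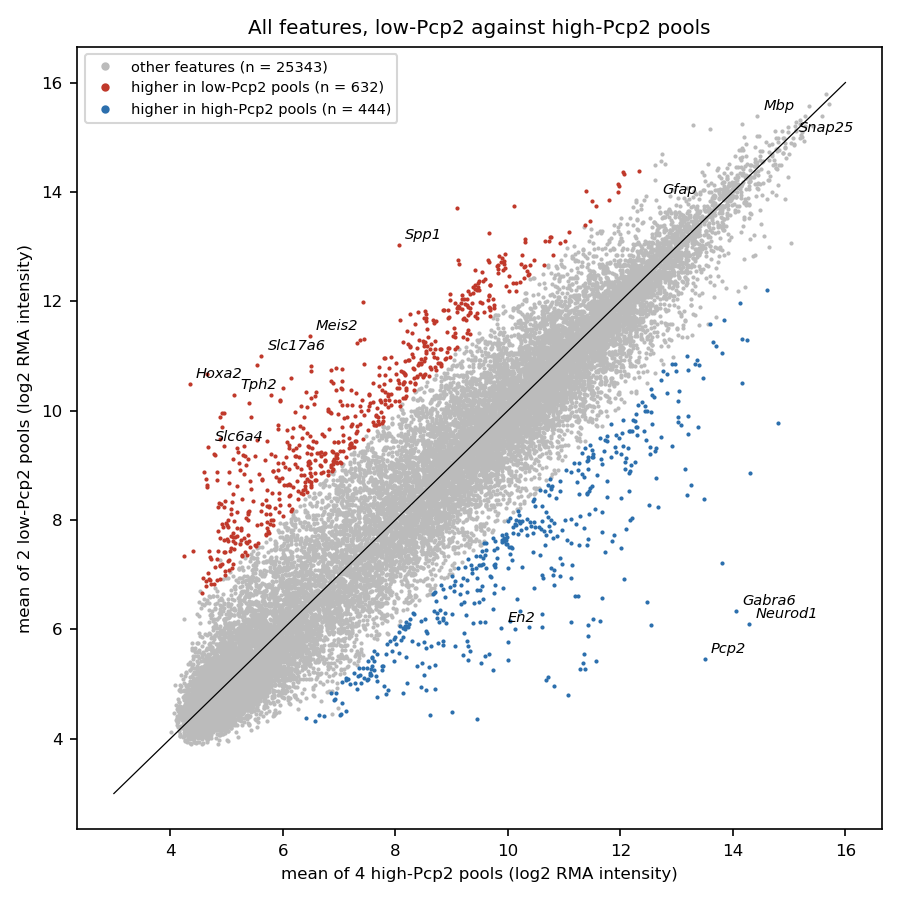
Mean log2 RMA intensity of every feature in the 2 low-Pcp2 pools (vertical axis) against the mean in the 4 high-Pcp2 pools (horizontal axis), with the line of equal level. The 632 red features were higher in the low-Pcp2 pools and the 444 blue features higher in the high-Pcp2 pools. Pcp2, Gabra6 and Neurod1 lie at the far lower right and Hoxa2, Tph2 and Slc6a4 at the far upper left.

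Single pairs of pools showed the same division. Between a low-Pcp2 and a high-Pcp2 pool, 1117 to 1408 features differed by 4-fold or more over 8 pairs, with Pearson correlations across features of 0.937 to 0.950. Within the high-Pcp2 pools, 28 to 136 features differed that far over 6 pairs, with correlations of 0.982 to 0.988. The 2 low-Pcp2 pools differed from each other by 4-fold or more at 36 features, with a correlation of 0.989. The deposited, already normalised values were alike in overall brightness, with medians of 213.2 to 232.8. On each array 66.9% to 68.8% of features had an intensity of 50 or more. Intensities before normalization were not examined. The random-sequence control probes had intensities of 23.5 and 23.3 in the low-Pcp2 pools and 23.9 to 25.5 in the high-Pcp2 pools, and the part of this in the results was not tested. The 15 reference genes of all cells had a median difference of 0.01, and none was counted as higher on either side. Gapdh, a glycolytic enzyme, was at 14.86 and 14.95 in the low-Pcp2 pools and 14.88 to 14.98 in the others.

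Pcp2, Neurod1 and Gabra6, marker genes of the cerebellar cortex, were far lower in the low-Pcp2 pools, which in this respect went against their label. Pcp2 was near or under the detection limit in both of these pools, and Neurod1 and Gabra6 in alcohol pool 2 alone. In the values that follow, the low-Pcp2 pools come in the order alcohol pool 2 and control pool 1, and the high-Pcp2 pools in the order alcohol pools 1 and 3 and control pools 2 and 3. Pcp2 was at 5.27 and 5.65 in the low-Pcp2 pools against 13.54, 13.42, 13.60 and 13.44, a difference of -8.04 ± 0.15 (SE), or 232-fold, where 1 of the 2 low-Pcp2 pools reached an intensity of 50. Neurod1 was at 5.41 and 6.79 against 14.21, 14.28, 14.30 and 14.39, a difference of -8.19 ± 0.29 or 270-fold. For both genes every high-Pcp2 pool lay more than 7 log2 units above either low-Pcp2 pool. Gabra6 was at 5.20 and 7.49 against 14.00, 14.18, 13.97 and 14.04, a difference of -7.71 ± 0.52 or 179-fold. The high-Pcp2 pools spanned less than 0.3 log2 units for each of these genes, whereas the low-Pcp2 pools were 2.29 units apart for Gabra6, with control pool 1 the higher.

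Of the 22 Purkinje cell genes measured, 16 were higher in the high-Pcp2 pools and none in the low-Pcp2 pools (72.7%, against 1.71% of all 18891 named genes), with a median difference of -2.89. Pcp2, whose side was fixed by the choice of pools, is one of the 16. Ppp1r17, a protein phosphatase inhibitor found in Purkinje cells, was at 6.30 and 8.11 against 13.73, 13.68, 13.98 and 13.82, or 96.7-fold lower. Car8, a carbonic anhydrase-related protein that binds the inositol trisphosphate receptor, was at 8.48 and 9.24 against 14.38, 14.32, 14.31 and 14.22. Slc1a6, the Purkinje cell glutamate transporter, was at 5.88 and 6.28 against 11.31, 11.72, 11.56 and 11.11. For all of these genes the 2 kinds of pool were separated by more than 4 log2 units. Itpr1, the inositol trisphosphate receptor itself, remained well detected in the low-Pcp2 pools, at 10.69 and 10.30 against 14.08 to 14.23, a difference of -3.67 ± 0.15. Cacna1g, a T-type calcium channel, differed by -3.73 ± 0.19, and Lhx1, a homeodomain factor of Purkinje cells, by -3.48 ± 0.32. The list also held genes with little difference, namely Pcp4, a calmodulin regulator at 14.47 to 14.93 in all 6 pools, and Necab2 at 8.58 to 9.47. Foxp2, a transcription factor of Purkinje and other neurons, was at 5.76 in alcohol pool 2, while control pool 1 at 7.80 lay within the range of the high-Pcp2 pools (7.53 to 7.98). Arhgef33 was 85.9-fold lower by 1 feature (-6.45 ± 0.24), but a second feature of the gene gave -0.56.

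Granule cell genes showed a like pattern, with 17 of 24 measured genes higher in the high-Pcp2 pools (70.8%), none higher in the low-Pcp2 pools and a median difference of -2.88. Cbln3, a cerebellin secreted by granule cells, was under an intensity of 50 in both low-Pcp2 pools (5.10 and 5.43) and at 11.64, 11.22, 11.32 and 11.32 in the others, at least 53.1-fold higher there. Its partner Cbln1, which bridges granule cell axons to Purkinje dendrites, was at 9.32 and 10.24 against 14.74, 14.70, 14.92 and 14.85. The GABA-A delta subunit gene Gabrd, whose product assembles with that of Gabra6, was at 7.94 and 8.84 against 13.53, 13.44, 13.45 and 13.55. Cbln1 and Gabrd were therefore still detected in both low-Pcp2 pools, in each case with control pool 1 the higher. Il16, a cytokine precursor with a neuronal form in granule cells, was 63.4-fold lower in the low-Pcp2 pools, and the cadherin Cdh15 20.0-fold lower. Eomes, the transcription factor of unipolar brush cells, was under 50 in both low-Pcp2 pools by 1 feature (-5.59 ± 0.23), while a second feature gave -1.06. Calb2, the calcium-binding protein calretinin, and Slc17a7, the vesicular glutamate transporter of granule cells and many forebrain neurons, differed by only -0.68 ± 0.14 and -0.67 ± 0.13. Barhl1 differed the other way, by 0.73 ± 0.20.

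The lists of cerebellar interneurons and Bergmann glia were mixed. These cells share several markers with brainstem cells, and the part of this in the lists was not tested. Of 15 molecular layer and Golgi interneuron genes, 4 were higher in the high-Pcp2 pools (26.7%) and 2 in the low-Pcp2 pools (13.3%). The shares over all named genes were 1.71% and 2.38%. The list had a median of 0.15 that ranged from 0.00 to 0.30 across the other settings. Tfap2b, a transcription factor of cerebellar GABA neurons, was, by the brighter of its features, at 5.30 and 5.82 against 11.14, 11.36, 11.52 and 11.39, and its relative Tfap2a differed by -2.71 ± 0.15. Kit, a receptor tyrosine kinase of molecular layer interneurons, was at 8.27 and 8.88 against 11.44, 11.58, 11.66 and 11.16. The GABA-synthesising enzyme Gad1 was at 8.68 and 10.74 against 12.39, 12.31, 12.28 and 12.21, so the 2 low-Pcp2 pools differed more from each other than the high-Pcp2 pools did among themselves. The 2 genes higher in the low-Pcp2 pools were Gata3 and the glycine transporter gene Slc6a5, described below. Among 8 Bergmann glia genes, Gdf10, a growth factor of the TGF-beta family, was at 5.90 and 6.49 against 11.52, 11.40, 11.62 and 11.54, and the Wnt inhibitor Wif1 differed by -2.25 ± 0.24. These 2 genes (25% of the list, against 1.71% of all named genes) were counted as higher in the high-Pcp2 pools. The other 6 were counted on neither side, among them the glutamate transporter gene Slc1a3 (-1.13 ± 0.12) and the fatty acid-binding protein gene Fabp7 (1.50 ± 0.27). En2, a homeodomain factor of the midbrain and cerebellum, was at 6.24 and 5.80 against 10.03, 9.57, 10.12 and 9.79.

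**Figure D2:**
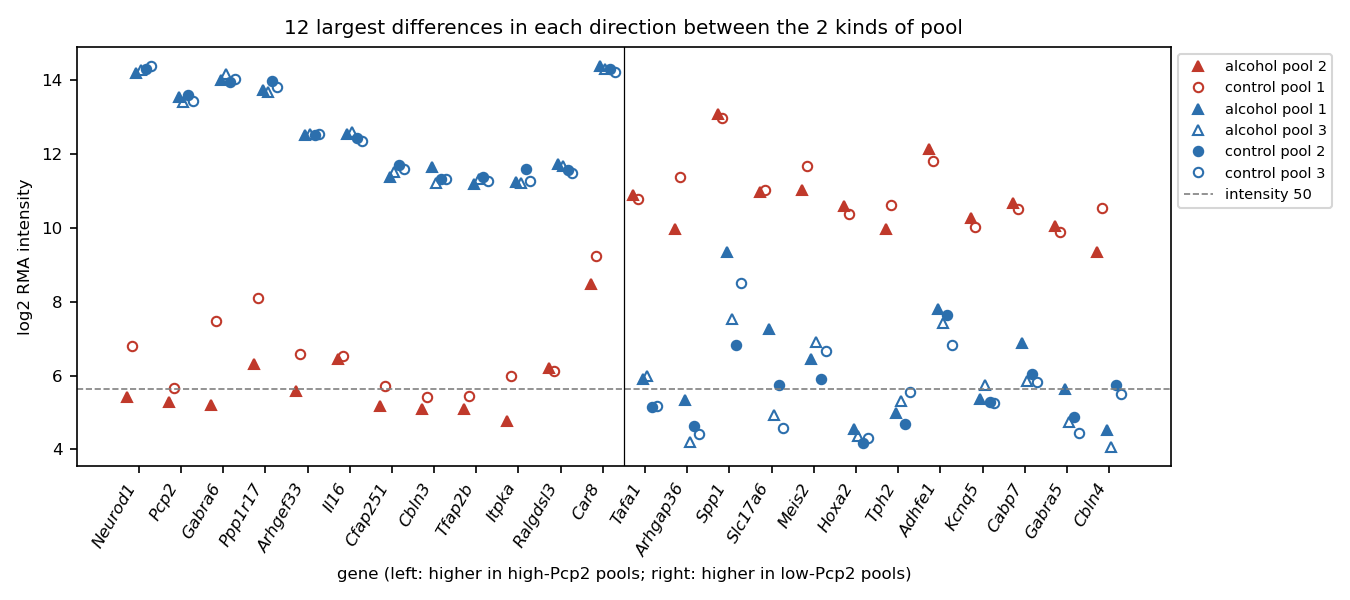
Log2 RMA intensity in each pool of the 12 genes with the largest difference in each direction, ranked with intensities under 50 raised to 50. Red symbols are the 2 low-Pcp2 pools and blue symbols the 4 high-Pcp2 pools, triangles are alcohol and circles control, and the dashed line is an intensity of 50. On the left, from Neurod1 to Car8, the blue symbols lie between 11.18 and 14.39, and on the right, from Tafa1 to Cbln4, the red symbols lie between 9.35 and 13.08.

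Hox genes were present only in part, and the division followed their paralog groups, which number the genes by their order in each cluster from front to back of the embryo. Of 13 measured genes in groups 1 to 5, 5 were higher in the low-Pcp2 pools, against 2.38% of all named genes, and 8 reached an intensity of 50 in both of them. With values under 50 raised to 50 the count was 3, as Hoxd1 and Hoxc4 were then less than 4-fold apart. Of 17 measured genes in groups 6 to 13, none was counted on either side and 16 were under 50 in both low-Pcp2 pools. The exception was Hoxc13, which was at 5.91 to 7.13 in all 6 pools. Hoxa2, which specifies the rhombomeres just behind the cerebellum, was at 10.60 and 10.38 in the low-Pcp2 pools and at 4.56, 4.36, 4.16 and 4.30 in the high-Pcp2 pools, a difference of 6.14 ± 0.13 and at least 28.7-fold. Hoxb3 was at 8.90 and 8.64 against 5.80, 6.35, 5.39 and 6.42, and Hoxd3 at 8.21 and 8.03 against 5.11, 5.61, 5.43 and 5.39. The 2 low-Pcp2 pools agreed within 0.26 log2 units for each of these 3 genes.

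The remaining early-group genes were dimmer. Hoxd1 was at 7.23 and 7.10 against 4.79 to 5.09, at least 2.87-fold higher. Hoxc4 was at 7.41 and 7.16 against 4.48 to 4.94 by 1 feature, but a second feature of Hoxc4 gave a difference of 0.16. Hoxb4 (6.28 and 6.81 against 4.21 to 4.96) and Hoxb5 (6.17 and 6.38 against 4.87 to 5.17) were above the limit only in the low-Pcp2 pools, with differences under 4-fold. Hoxb1, Hoxb2 and Hoxc5 were under 50 in both low-Pcp2 pools, Hoxa5 reached it in control pool 1 alone, and Hoxd4 was at 5.47 to 6.23 across all 6 pools. The features for Hoxa3, Hoxa4, Hoxa6, Hoxa10, Hoxa11, Hoxc8, Hoxc11, Hoxd8 and Hoxd11 were not matched by name.

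**Figure D3:**
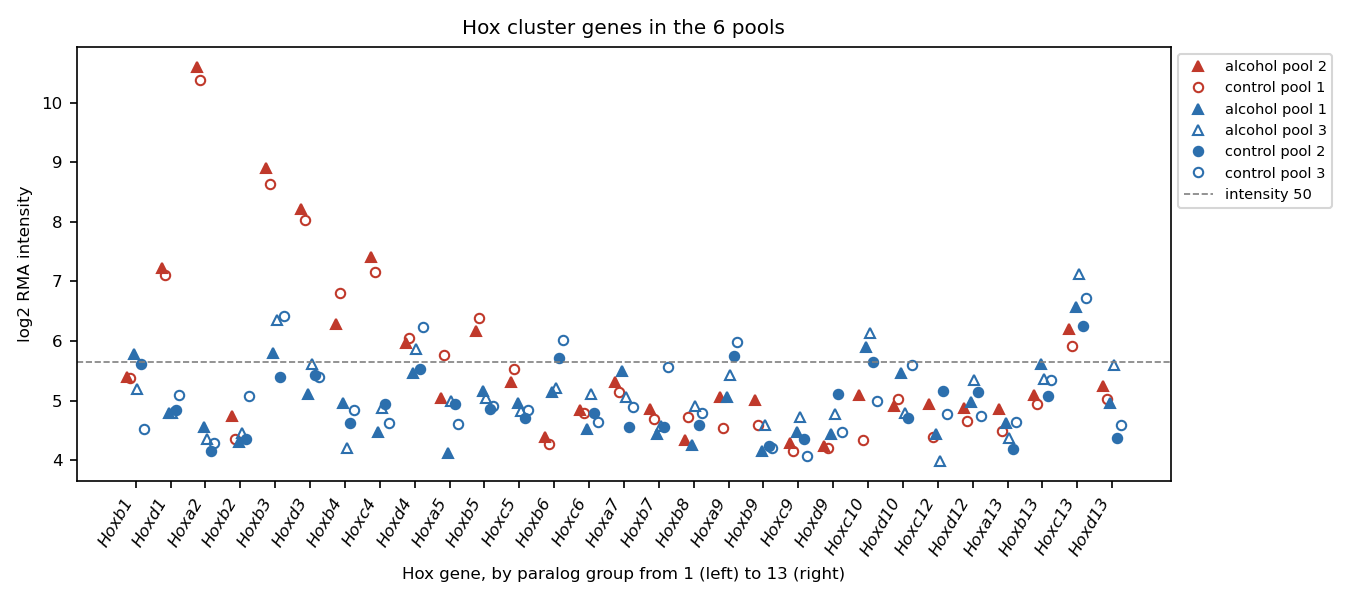
Log2 RMA intensity of the measured Hox genes that are reported by name, in each pool, ordered by paralog group from 1 at the left to 13 at the right, with the low-Pcp2 pools in red, the high-Pcp2 pools in blue and the dashed line at an intensity of 50. The red symbols for Hoxa2, Hoxb3, Hoxd3, Hoxd1 and Hoxc4 lie between 7.10 and 10.60, above all blue symbols of the same gene, and none of the 17 genes from paralog group 6 on was counted as higher.

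Of 17 other regional transcription factors of the hindbrain, 3 were higher in the low-Pcp2 pools (17.6%, against 2.38% of all named genes), 1 was higher in the high-Pcp2 pools (En2, above) and 13 were counted on neither side. Meis2, a homeodomain partner of Hox proteins, was at 11.04 and 11.69 against 6.46, 6.90, 5.91 and 6.66, or 29.5-fold higher in the low-Pcp2 pools. Irx2, an Iroquois homeodomain factor, was at 10.36 and 10.41 against 6.85, 6.98, 6.82 and 7.10. Nkx6-2, a homeodomain factor of ventral progenitors and oligodendrocytes, was at 7.83 and 8.03 against 5.88, 5.11, 6.22 and 5.27. Irx3, a relative of Irx2, was at 7.43 to 8.01 in all 6 pools. Markers of regions in front of the hindbrain were mostly counted on neither side. Of 24 genes of cortex, hippocampus and striatum, none was higher in the low-Pcp2 pools, and the transcription factor gene Bhlhe22 and the dopamine receptor gene Drd1 were higher in the high-Pcp2 pools. Tbr1, a cortical factor, and Nkx2-1, a factor of the ventral forebrain, were under 50 in all 6 pools. Of 19 genes of thalamus, hypothalamus and pituitary, 11 were under 50 in all 6 pools and the peptide gene Trh alone was higher in the low-Pcp2 pools. Of 12 midbrain and dopamine neuron genes, 1 was higher in the low-Pcp2 pools, the dopamine transporter gene Slc6a3 described below, and 1 in the high-Pcp2 pools, Otx2. Each was 8.33% of the list, against 2.38% and 1.71% of all named genes. Otx2, a homeodomain factor of the midbrain and forebrain that is also made in cerebellar and choroid plexus cells, was at 5.50 and 6.76 against 8.56, 8.95, 8.42 and 9.20.

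Genes of transmitter systems with cell bodies in the brainstem were described by list. Of 13 serotonin neuron genes, 5 were higher there (38.5%, against 2.38% of all named genes) and none was higher in the high-Pcp2 pools, with a median of 1.73, or 1.03 with values under 50 raised to 50. Tph2 was at 9.96 and 10.61 against 4.97, 5.30, 4.68 and 5.56, a difference of 5.16 ± 0.30 and at least 25-fold. Slc6a4 was at 9.03 and 9.65 against 5.07, 4.41, 4.41 and 4.84, a difference of 4.66 ± 0.28 and at least 13-fold. For both, every high-Pcp2 pool was under an intensity of 50 and control pool 1 was the higher of the 2 low-Pcp2 pools. Gata3, a transcription factor of caudal raphe neurons, was at 9.45 and 9.95 against 4.81, 5.11, 4.43 and 5.36, at least 16.6-fold. Ddc, which makes serotonin and dopamine from their precursors, was at 10.18 and 10.97 against 7.94, 7.78, 8.27 and 8.21. Slc18a2, the vesicular monoamine transporter, was at 7.70 and 8.73 against 5.60, 5.76, 5.77 and 6.29. The autoreceptor gene Htr1a was detected only in the low-Pcp2 pools, at 5.88 and 7.35, with a difference short of the 4-fold criterion (1.85 ± 0.32). Lmx1b, a factor of serotonin neurons, was under 50 in all 6 pools.

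Catecholamine genes differed between the 2 low-Pcp2 pools as well as from the others. Th, the rate-limiting enzyme of catecholamine synthesis, had levels of 8.18 in alcohol pool 2 and 11.15 in control pool 1, and the high-Pcp2 pools had 5.21, 5.85, 6.20 and 6.37, a difference of 3.75 ± 0.51. Dbh, which turns dopamine into noradrenaline, was at 8.09 in control pool 1 but at 5.31 in alcohol pool 2, and at 4.28, 4.88, 4.37 and 4.59 in the others. Slc6a3, the dopamine transporter, was at 6.95 and 9.06 against 6.12, 5.11, 5.85 and 4.44, a difference of 2.62 ± 0.71. Thus Dbh was detected in 1 of 6 pools, and the count for the noradrenaline and adrenaline list left it out. That count was 3 of 12 genes (25%, against 2.38% of all named genes). They were Th, Ddc and Slc18a2, and Ddc and Slc18a2 are also on the serotonin list. Phox2a and Pnmt, genes of noradrenaline and adrenaline neurons, were under 50 in all 6 pools.

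Of 14 genes of subcortical and brainstem glutamate neurons, 3 were higher in the low-Pcp2 pools (21.4%) and 1 in the high-Pcp2 pools (7.14%). Of 9 glycine genes, 3 (33.3%) and 1 (11.1%) were, and of 14 cholinergic and motor neuron genes, 2 (14.3%) and none. The shares over all named genes were 2.38% and 1.71%. Slc17a6, the vesicular glutamate transporter of subcortical and brainstem neurons, was at 10.97 and 11.04 against 7.25, 4.92, 5.74 and 4.57, a difference of 5.39 ± 0.71 or 30.6-fold. Glra1, the adult glycine receptor subunit of brainstem and spinal cord, was at 9.21 and 9.17 against 5.32, 4.55, 5.06 and 4.22, at least 11.6-fold. Slc6a5, the neuronal glycine transporter, was at 10.63 and 11.11 against 8.36, 9.04, 8.95 and 8.86, so that it was detected in all 6 pools; it is also expressed by Golgi cells of the cerebellum. Slc32a1, the vesicular transporter of both GABA and glycine, was lower in the low-Pcp2 pools (-0.98 ± 0.28) at 9.60 and 10.87 against 11.15 to 11.35. Gabra5, a GABA-A subunit, was at 10.04 and 9.88 against 5.64, 4.73, 4.87 and 4.43, which with Gabra6 puts receptor subunits at both ends of the ranking. The choline transporter gene Slc5a7 was at 5.88 and 8.79 against 4.25 to 5.29, and the intermediate filament gene Prph, of motor and other neurons with peripheral axons, at 7.01 and 8.81 against 4.78 to 5.35. Chat, which synthesises acetylcholine, was under 50 in both low-Pcp2 pools (5.13 and 5.30), and Isl1 and Mnx1, factors of motor neurons, were under it in all 6 pools.

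Of 25 neuropeptide genes, 4 were higher in the low-Pcp2 pools (16%, against 2.38% of all named genes) and none in the others. Their median difference was 0.99, but 0.62 with values under 50 raised to 50 and 0.31 without control pool 1. Adcyap1, encoding the peptide PACAP, was at 10.79 and 10.77 against 7.25, 6.12, 6.95 and 7.46. Trh, encoding thyrotropin-releasing hormone, was at 9.13 and 8.80 against 5.59, 6.79, 5.82 and 5.98. Tac1, the precursor of substance P, was at 7.03 and 9.44 and Nts, the precursor of neurotensin, at 6.64 and 8.72, with all high-Pcp2 pools of both under 50. The first pair was nearly equal in the 2 low-Pcp2 pools, while Tac1 and Nts differed there by more than 4-fold. Grp and Cartpt, encoding further peptides, were detected in control pool 1 alone, at 7.55 and 7.39.

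The largest differences toward the low-Pcp2 pools included genes of other functions. Tafa1, a secreted chemokine-like protein, was at 10.89 and 10.78 against 5.90, 5.99, 5.14 and 5.17, or 33.0-fold. Arhgap36, a protein that acts on protein kinase A and hedgehog signalling, was at 9.96 and 11.38 against 4.21 to 5.33, at least 32.6-fold. Spp1, the secreted protein osteopontin, was at 13.08 and 12.98 against 9.36, 7.53, 6.83 and 8.52, and its high-Pcp2 pools spread over more than 2 log2 units. Adhfe1, a mitochondrial hydroxyacid transhydrogenase, was 23.5-fold higher, the potassium channel gene Kcnq5 22.2-fold, the calcium-binding protein gene Cabp7 21.9-fold and the cerebellin gene Cbln4 19.5-fold. Its relatives Cbln1 and Cbln3 differed in the opposite direction. In the low-Pcp2 pools themselves Cbln4, at 9.35 and 10.55, was nevertheless close to Cbln1, at 9.32 and 10.24.

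Myelin genes were higher in the low-Pcp2 pools without exception. All 25 measured myelin and oligodendrocyte genes were higher in both low-Pcp2 pools than in any high-Pcp2 pool, and 16 of them (64%, against 2.38% of all named genes) met the 4-fold criterion, with a median difference of 2.14. Gjb1, a gap junction protein of oligodendrocytes, was at 11.27 and 11.24 against 8.58, 7.74, 8.31 and 7.91, a difference of 3.12 ± 0.27. The protease gene Klk6 was at 13.15 and 13.13 against 10.66, 9.89, 10.50 and 10.20, a difference of 2.83 ± 0.24. Myrf, the transcription factor that drives myelin genes, was at 10.69 and 10.60 against 8.62, 8.00, 8.26 and 7.83. In each case the 2 low-Pcp2 pools agreed within 0.1 log2 units. Among the smallest differences in the list was that of Mbp, which encodes a main myelin protein, at 15.35 and 15.41 against 14.27 to 14.76. Fa2h, which makes hydroxylated myelin lipids, gave 2.77 ± 0.20 by 1 feature and 0.77 by another.

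Of 14 neurofilament and large axon genes, 3 were higher in the low-Pcp2 pools (21.4%, against 2.38% of all named genes), with a median difference of 1.04. The 3 were Nefl, the intermediate filament gene Prph and the secreted protein gene Spp1, with Prph and Spp1 described above. Of 13 perineuronal net genes, 3 were higher in the low-Pcp2 pools (23.1%), with a median difference of 0.23. None of either list was higher in the high-Pcp2 pools, though differences reached down to -0.98 and -0.94. Nefl, Nefh and Nefm, the neurofilament subunits of large axons, differed by 2.20 ± 0.18, 1.85 ± 0.17 and 1.71 ± 0.15, and of these Nefl alone passed 4-fold. Acan, the core proteoglycan of the nets around neurons, was at 8.24 and 8.30 against 5.95, 6.64, 5.65 and 5.55, and the link protein gene Hapln2 and the proteoglycan gene Ncan differed by 2.59 ± 0.23 and 2.01 ± 0.16. General neuronal genes had a median difference of -0.14 over 20 genes. Snap25, a synaptic vesicle fusion protein, was at 15.04 and 14.93 against 14.98 to 15.12. Within that list Uchl1, a neuronal deubiquitinase, was at 13.94 and 14.08 against 11.30 to 11.49, and Rbfox3, the nuclear protein NeuN, differed the other way by -1.54 ± 0.12.

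Glial, vascular and meningeal genes were higher by smaller amounts than the myelin genes. All 16 microglia and macrophage genes and all 18 endothelial and pericyte genes lay higher in both low-Pcp2 pools than in any high-Pcp2 pool, and 12 of 14 astrocyte and 13 of 15 meningeal genes did so, against 4887 of all 18891 named genes. Their median differences were 1.39, 0.79, 0.89 and 1.16. Cx3cr1, the fractalkine receptor of microglia, was at 10.06 and 9.85 against 8.54, 7.88, 8.43 and 7.70. Gfap, the astrocyte filament protein, was at 14.04 and 13.66 against 12.96, 12.44, 12.68 and 12.43. Neither reached the 4-fold criterion. Those that did were the GABA transporter gene Slc6a11 (3.00 ± 0.17) of astrocytes and the smooth muscle genes Acta2 (2.43 ± 0.31) and Tagln (2.00 ± 0.45). Of 11 oligodendrocyte precursor genes C1ql1 alone was counted (2.46 ± 0.22), a gene also expressed by inferior olive neurons, while the precursor marker Pdgfra differed by 1.49 ± 0.14. The 9 blood cell genes were counted on neither side, with Hbb, a globin chain, at 14.15 to 14.66 in all 6 pools, and likewise the 11 ependymal, 10 sensory ganglion and 10 skeletal muscle genes.

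**Figure D4:**
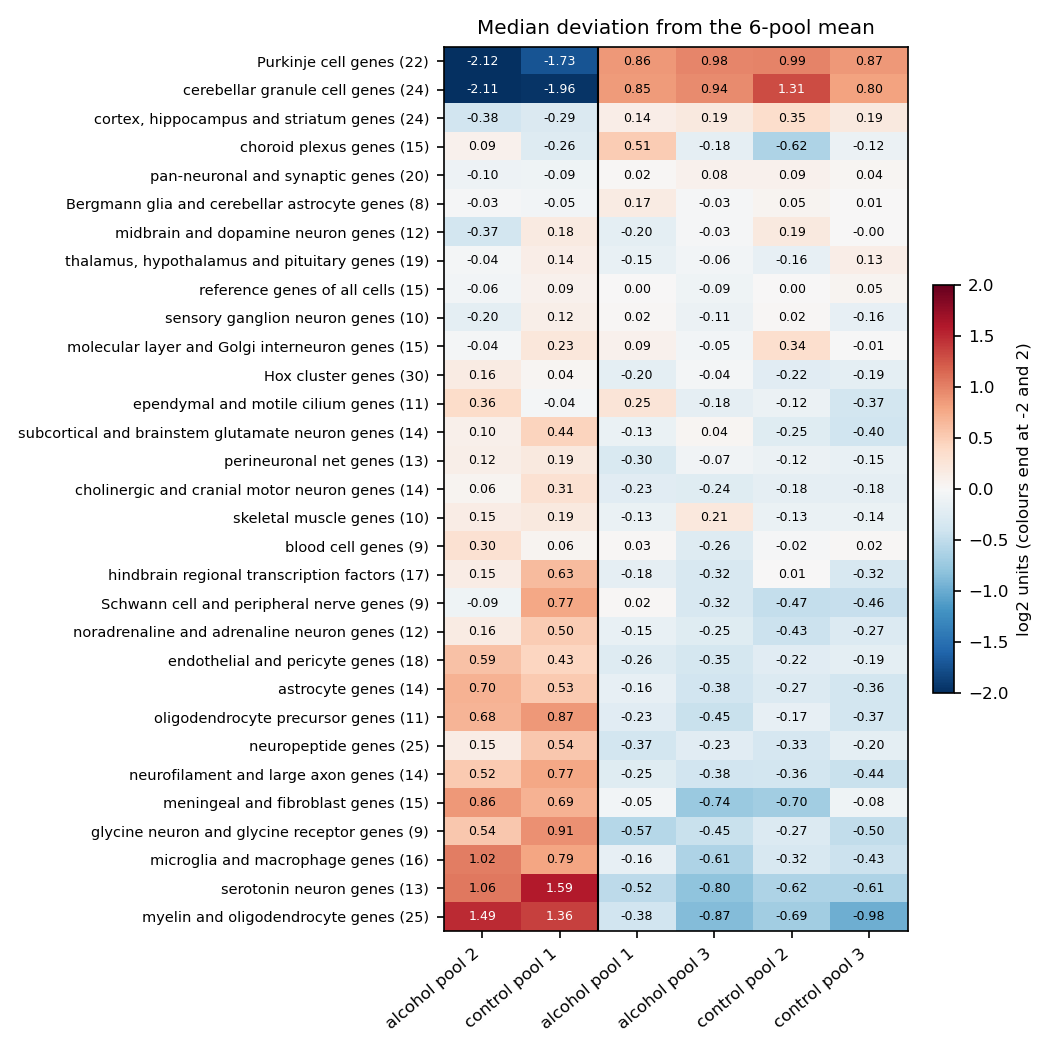
Median over each gene list of the deviation of a pool from the mean of the 6 pools, in log2 units, with the number of measured genes in brackets, ordered by the difference between the low-Pcp2 pools (left of the line) and the high-Pcp2 pools (right). Purkinje and granule cell genes deviate by -2.12 to -1.73 in the low-Pcp2 pools, and myelin genes by 1.49 and 1.36. Reference genes of all cells deviate by no more than 0.09.

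Choroid plexus genes did not follow the division. Ttr, encoding transthyretin, the main secreted protein of the choroid plexus, was at 9.04 and 6.78 in the low-Pcp2 pools and at 13.67, 7.65, 7.55 and 6.78 in the high-Pcp2 pools. Alcohol pool 1 therefore stood far above the other 5 pools. Over the list, Tmem72 and Enpp2, which is also an oligodendrocyte gene, were higher in the low-Pcp2 pools (13.3%, against 2.38% of all named genes). Clic6 and Otx2 were higher in the high-Pcp2 pools (13.3%, against 1.71%), and 11 of 15 genes were counted on neither side.

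The 2 low-Pcp2 pools were not equal, and the difference between them was not used to choose them. It is also a difference between alcohol and saline with 1 pool each, so that treatment and pool cannot be told apart in it and it has no replicate check. Control pool 1 exceeded alcohol pool 2 by 4-fold or more at 27 features, and alcohol pool 2 exceeded control pool 1 at 9. Among named genes at an intensity of 50 or more in both low-Pcp2 pools, those with the largest excess in control pool 1 were Th, Slc5a7, the dopamine receptor gene Drd2 (7.40 in alcohol pool 2 and 9.98 in control pool 1), Fubp3 (10.12 and 12.63), the nicotinic receptor subunit gene Chrna2 (5.84 and 8.30), the cholecystokinin gene Cck (5.95 and 8.41), Tac1 and Tox2 (7.41 and 9.68). Most of these encode parts of transmitter and peptide systems. By list, alcohol pool 2 was below control pool 1 for 13 of 14 cholinergic and motor neuron genes, 10 of 13 serotonin genes, 10 of 12 midbrain and dopamine genes and 8 of 9 Schwann cell genes, against 56.1% of all named genes. It was likewise below for 13 of 15 reference genes of all cells, 9 of 10 sensory ganglion genes, 12 of 15 cerebellar interneuron genes and 11 of 14 brainstem glutamate genes. The median differences, alcohol pool 2 minus control pool 1, were -0.52, -0.54, -0.75 and -0.65 for the first 4 lists and -0.09, -0.27, -0.48 and -0.43 for the others, against -0.04 over all named genes. No minimum intensity was applied to the lists. Of the 14 cholinergic and motor neuron genes 6 were under 50 in all 6 pools, as were 4 of the 10 sensory ganglion genes. The serotonin, midbrain and brainstem glutamate lists held 2 such genes each, and all named genes held 3781 of 18891.

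In the other direction and under the same minimum intensity, alcohol pool 2 exceeded control pool 1 most for Ttr, the peroxisomal gene Pex11a (11.38 and 9.17), Grifin (9.78 and 7.93), Usp18 (8.26 and 6.48), the amylase gene Amy1 (8.39 and 6.67), Cxcl10 (8.48 and 6.77), Mx1 (7.38 and 5.69) and Eef1g-ps13 (8.88 and 7.24). Usp18, Cxcl10 and Mx1 are genes induced by interferon. Among the high-Pcp2 pools, Usp18 was at 7.85, 6.25, 7.11 and 6.21 and Mx1 at 6.24, 4.52, 4.22 and 4.76, so that alcohol pool 1 was the highest of those 4 for both genes. Cxcl10 was at 5.03, 4.87, 5.52 and 6.23 there, and the highest pool was control pool 3. For microglia and endothelial genes alcohol pool 2 was mostly the higher: it was below control pool 1 for 4 of 16 and 2 of 18 of them, with median differences of 0.22 and 0.17.

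Features higher in the high-Pcp2 pools were also unequal between the 2 low-Pcp2 pools, and Purkinje cell genes more so than granule cell genes. Of the 444 features higher in the high-Pcp2 pools, 66.9% were lower in alcohol pool 2 than in control pool 1, against 53.2% of all features and 47.6% of the 632 features higher in the low-Pcp2 pools. Among Purkinje cell genes this held for 17 of 22 (77.3%), with a median of -0.41, and among granule cell genes for 11 of 24 (45.8%), with a median of 0.04. Over all named genes it held for 56.1%, with a median of -0.04. Gabra6 and Ppp1r17 were 2.29 and 1.82 log2 units lower in alcohol pool 2 (5.20 against 7.49, and 6.30 against 8.11).

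**Figure D5:**
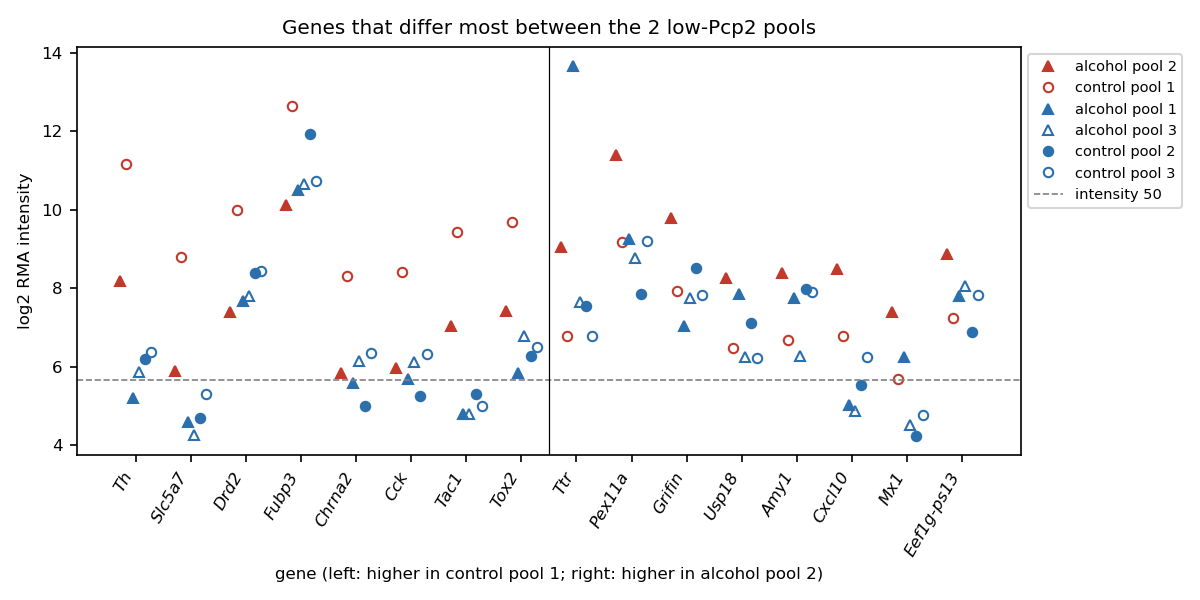
Log2 RMA intensity in each pool of the 8 genes with the largest difference in each direction between the 2 low-Pcp2 pools (red), among named genes at an intensity of 50 or more in both, with the high-Pcp2 pools in blue, alcohol as triangles, control as circles and the dashed line at an intensity of 50. From Th to Tox2 the open red circle of control pool 1 lies above the red triangle of alcohol pool 2, with differences (alcohol pool 2 minus control pool 1) of -2.27 to -2.96. From Ttr on, the triangle lies above the circle, and for Ttr the alcohol pool 1 symbol is the highest at 13.67.

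The treatment comparison, which the choice of pools did not use, was made with the kind of pool as a term. With limma and Benjamini-Hochberg adjustment over 26419 features, none (0%) differed between alcohol and saline at an adjusted p of 0.05, and the smallest adjusted p was 0.195. At an unadjusted p under 0.05 there were 2502 features (9.47%), of which 1351 were higher and 1151 lower after alcohol. Each pool averaged 3 rats, so these p-values reflect only how pools varied. The named features of above-median level with the smallest p did not pass the threshold. They were Or2y13 (1.20 ± 0.17), Fdcsp (1.13 ± 0.16), Rplp2l1 (1.09 ± 0.17), Krtap10-10l2 (0.95 ± 0.15), Zfhx2 (-0.76 ± 0.12) and Taar7h (0.73 ± 0.12), as log2 alcohol minus saline, and the adjusted p of each from limma was 0.405. Zfhx2, a zinc finger homeobox gene, had levels of 7.78 and 8.63 in the low-Pcp2 pools, of 7.91 and 7.74 in the other alcohol pools and of 8.50 and 8.56 in the other control pools. The 3 alcohol pools thus lay below the 3 control pools in both kinds of pool. Or2y13 and Taar7h belong to the olfactory and trace amine receptor families, whose near-identical members may share signal on the same probes.

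The standard errors of this comparison were compared with and without the term for pool kind. Over all features the median standard error of the alcohol difference was 0.27 without the term and 0.17 with it. For the features counted on neither side the values were 0.27 and 0.17. The fit without the term was added after the data had been seen, and it also called no feature, with 1030 at an unadjusted p under 0.05.

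Whether the alcohol difference itself depended on the kind of pool was tested with an interaction term. No feature (0%) passed an adjusted p of 0.05 in limma, the smallest adjusted p was 1, and 1242 features (4.70%) had an unadjusted p under 0.05. With a single low-Pcp2 pool in each treatment, this test rests on the spread within the high-Pcp2 pools. The smallest p-values among features of above-median level belonged to Mrps10, a mitochondrial ribosomal protein (difference of differences 3.17 ± 0.28), Gabra6 (-2.38 ± 0.29), Gad1 (-2.17 ± 0.27), Pax2 (-1.88 ± 0.27), Drd2 (-1.90 ± 0.28) and 6330403K07Rikl (-1.89 ± 0.29). None passed the threshold. Pax2, a transcription factor of GABA interneuron precursors, was at 7.14 in alcohol pool 2, 8.82 in control pool 1 and 9.88 to 10.10 in the high-Pcp2 pools. For Gabra6, Gad1 and Pax2 the high-Pcp2 pools differed little by treatment, and the estimates followed the gap between alcohol pool 2 and control pool 1.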

How the data were processed

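Expression was measured on 6 single-colour NimbleGen arrays, 1 per pool. The authors deposited a linear intensity for each feature, made with RMA per the submitters' processing notes. Whether the arrays were normalised together, the scanner software and the build are not given in those notes or labels. Precision is limited by the number of arrays. Of the 26420 entries in a file, the 1 entry for 5651 random-sequence probes was dropped. The authors' deposited value table of 18107 features held exactly those with an intensity of at least 50 on 3 or more arrays, with 0 exceptions, and was used as an alternative.

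The log2 of the intensities was analysed with no added normalization. Names came from RefSeq (GRCr8) through the gene identifier for 20681 features, an accession for 31 and the file's symbol for 202, giving 18891 genes, and for a gene with several features the brightest was used in the lists. Pools were divided by Pcp2 intensity (under 100 or above 5000). Differences, alcohol effects and the interaction were estimated with limma's lmFit and eBayes (version 3.58.1, R 4.3.3; two-sided tests), with Python 3.11.15, pandas 2.3.3, numpy 2.4.6 and matplotlib 3.10.9 for tables and plots. The fits were tested on simulated data. The members and the 31 gene lists (453 of 475 listed names measured) were chosen with earlier results of these data known. Named genes were the markers, the 12 largest differences each way (values under 50 raised to 50), all Hox genes, list members with the largest and smallest differences (all where 12 or fewer were measured), the 8 largest differences each way between the low-Pcp2 pools, the smallest p-values of both tests and genes next to the 4-fold limit. Others named, such as Gad1, Gapdh, Snap25, Cartpt, Pdgfra and Hbb, were chosen within the lists after their values were seen where that rule does not reach them. Alternatives were centring, quantile normalization, raising values under 50, the value table, other limits, a filter on dim features, eBayes with trend and robust options, the replicate number as a block and leaving out each pool. A few list members counted above are not reported by name here.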

Additional observations from a re-analysis of the deposited data

Results flagged for a closer look

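For each of the 31 gene lists, the 4 high-Pcp2 pools were checked for a single pool far from the other 3 (Dixon's criterion), which chance meets in about 1 in 20 groups. Alcohol pool 3 stood apart in 2 lists. Its median deviation over the Hox genes was -0.04, against -0.20 in alcohol pool 1, -0.22 in control pool 2 and -0.19 in control pool 3, with most Hox genes under the detection limit in these pools. Its median deviation over the skeletal muscle genes was 0.21, against -0.13, -0.13 and -0.14. The muscle genes Acta1 and Des were at 7.28 and 7.75 in alcohol pool 3, but control pool 3 was higher for both, at 7.54 and 8.67.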

How the results depend on the processing

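Requiring a difference of 3 log2 units left 149 features higher in the low-Pcp2 pools and 142 higher in the high-Pcp2 pools. All other settings, leaving out each pool included, kept both counts within 1.5 times of 632 and 444. Among the 108 list members counted as higher on either side, none changed sign under any setting that gave it a value (93 of them in the value table), and 0 to 8 lost the call, apart from 58 at 3 log2 units. These members were counted for a gap of at least 2 log2 units in the same data, and the value table and the other limits leave their values unchanged. The lack of sign changes was therefore nearly fixed in advance and is no check of the differences. Without alcohol pool 2 the calls of Drd1, Gad1, Kitlg, Tagln, Ncan, Enpp2, Lhx5 and Pax2 were lost, and without control pool 1 those of Prph, Slc6a3, Slc18a2, Slc5a7, Slc6a5, Sall3 and Nts. Centring the arrays moved the median difference over all features from -0.05 to -0.11. For the alcohol effect every setting gave 0 features past the threshold, with smallest adjusted p-values of 0.0717 to 1 in limma. For its dependence on pool kind, eBayes with trend and robust options called 2 features, Gad1 and Gabra6 (adjusted p = 0.0262 in limma for both), and the other settings 0, with smallest adjusted p-values of 0.238 to 1. The deviations of same-numbered pools from their treatment mean had correlations of -0.63, -0.68 and 0.60 for numbers 1, 2 and 3. Pool kind was not removed from these deviations. Numbers 1 and 2 each joined a low-Pcp2 and a high-Pcp2 pool, and number 3 joined 2 high-Pcp2 pools. The correlations therefore cannot show whether the samples were paired. With the replicate number as a block the counts were 616 and 470, with 0 features for alcohol. The interaction could not be fitted with the replicate block or without either low-Pcp2 pool. With 2 low-Pcp2 pools, levels under an intensity of 50 are bounds only.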

Other observations

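Mrps10 had the smallest unadjusted interaction p in limma among named features of above-median level. Other genes were not searched for the same pattern. Mrps10 was at 6.05 in alcohol pool 1 and 6.14 in alcohol pool 3, and at 9.62 in alcohol pool 2, 10.12 in control pool 1, 9.70 in control pool 2 and 9.85 in control pool 3. The pools with the low level were the 2 alcohol pools of the high-Pcp2 kind, and its interaction had an adjusted p of 1 in limma.

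The feature with the smallest adjusted p for alcohol with the term for pool kind (0.195 in limma) has no gene name in the sources used here. Its level was 7.24, 6.45 and 6.32 in alcohol pools 2, 1 and 3 and 5.39, 4.31 and 4.19 in control pools 1, 2 and 3, and all control pools were under an intensity of 50.

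Several genes had features that disagreed in size. For the nuclear receptor gene Rora, a factor of Purkinje cells, the brightest feature gave -1.56 ± 0.13 and the others -2.26, -1.32 and -1.96. For the myelin gene Mobp the brightest feature gave 1.56 ± 0.25 and the other 2.06, and for Myh2, a muscle myosin, 1.19 ± 0.19 and 2.15.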
